A study of Mus musculus with 8 samples.

Results

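The 41 genes described here serve the endoplasmic reticulum (ER), the compartment in which secreted and membrane proteins are folded, and the stress responses that guard it. They were chosen by symbol as sensors of unfolded protein, chaperones, disulfide isomerases, factors of ER-associated degradation, outputs of the integrated stress response, and subunits of the signal peptidase and the translocon. All 41 were found among the 31610 genes of the count table, and all 41 passed the filter on low counts that left 18874 genes for testing. Endothelial cells were sorted by flow cytometry from C57BL/6J mouse lungs after administration of adeno-associated virus (AAV), and their RNA was sequenced. The control AAV group and the nANGPTL4 AAV group have 4 libraries each, and the labels do not spell out nANGPTL4 further. ANGPTL4 is known as a secreted inhibitor of lipoprotein lipase. Titles call the second group NT Treated, so its identity rests on the treatment field of the labels. All mice carried a virus, and the sources used here give neither the vector's promoter and dose nor the age and sex of the mice.

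As background, secreted and membrane proteins enter the ER through the SEC61 channel, and the signal peptidase removes their leading peptide as they pass. Chaperones and disulfide isomerases then fold them, and chains that fail to fold are drawn back into the cytosol and degraded. Unfolded protein that builds up is sensed by IRE1 (Ern1), PERK (Eif2ak3) and ATF6. These act through the transcription factors XBP1, ATF4 and ATF6 to raise chaperones and degradation factors. PERK also lowers translation, by phosphorylating a translation factor. Endothelial cells secrete large proteins such as von Willebrand factor and basement membrane components, and so depend on this route.

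Total counts lay between 83183122 and 114337333 per library. The 12 pan-endothelial markers checked summed to 23115 to 23821 CPM (counts scaled to an equal library total) in control AAV and to 22205 to 23058 in nANGPTL4 AAV. The markers of the labelled cell type were thus high in every library. With the scaling used here their sum was lower in every nANGPTL4 AAV library than in any control AAV library. Replicates of a group are independent biological replicates per the design text. All fold changes are nANGPTL4 AAV against control AAV on the log2 scale, from edgeR's quasi-likelihood test fitted over all tested genes, and an adjusted p is Benjamini-Hochberg adjusted over those genes. CPM values use TMM scaling, which sets libraries on a common scale from the bulk of the genes. The TMM factors were 0.969 to 0.994 in control AAV and 1.008 to 1.023 in nANGPTL4 AAV. A higher factor lowers every CPM value of its library, and without these factors the marker sums of the groups overlapped. Of the 12 pan-endothelial markers 10 had negative fold changes, with a median of -0.05, and 7 were negative under upper quartile and library size scaling. In edgeR and in DESeq2 0 of them passed an adjusted p of 0.05. In bulk samples, fewer cells of a type and less RNA per cell cannot be told apart.

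Spcs3, a subunit of the signal peptidase, was the only 1 of the 41 genes that passed an adjusted p of 0.05 in that test, and it fell. Over all tested genes 0.138% passed, 0.0901% in the lower and 0.0477% in the higher direction. DESeq2 called 7 of the 41 (17.1%), all lower: Spcs3, Derl2, Canx, Manf, Dnajb11, Edem1 and Xbp1. It called 5.07% of all tested genes, 3.43% in the lower direction. On simulated counts, where 14 unchanged genes passed in edgeR, 46 passed in DESeq2. Of the 41 fold changes, 35 were negative and 6 positive, with a median of -0.12. Under upper quartile scaling 31 were negative with a median of -0.08, and under library size scaling 30 with a median of -0.08 (-0.0792). Leaving out control AAV library 2 gave a median of -0.07. They ranged from -0.38 for Spcs3 to 0.38 for the sparsely counted Derl3. The median over all tested genes was 0.01 with 47.8% negative, and over the 9256 genes with a mean log2 CPM above 3, which include all of the 41 but Derl3, it was -0.03 with 62.5% of values negative. An unadjusted p under 0.05 was reached by 16 of the 41, all of them lower, against 17.6% of all tested genes in either direction, 10.3% of all tested genes and 18.2% of the 9256 more abundant ones in the lower direction. In 11 of the 41 (26.8%) every nANGPTL4 AAV library lay below every control AAV library, and in 0 did every one lie above. That lower separation was seen in 6.99% of all tested genes (10.9% in either direction) and in 12.6% of the more abundant ones (14.8% in either direction). The count of 11 depended on the scaling, being 6 under upper quartile and 7 under library size scaling, where 3.89% and 3.67% of all tested genes separated this way. Of the more abundant genes 6.88% and 6.44% did so. Under both scalings Spcs3, Derl2, Canx, Manf, Dnajb11 and Edem1 stayed separated. Spcs2 did so under library size scaling only, and Ddit3, Sel1l, Sec11a and Sec61a1 under neither.

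**Figure D1:**
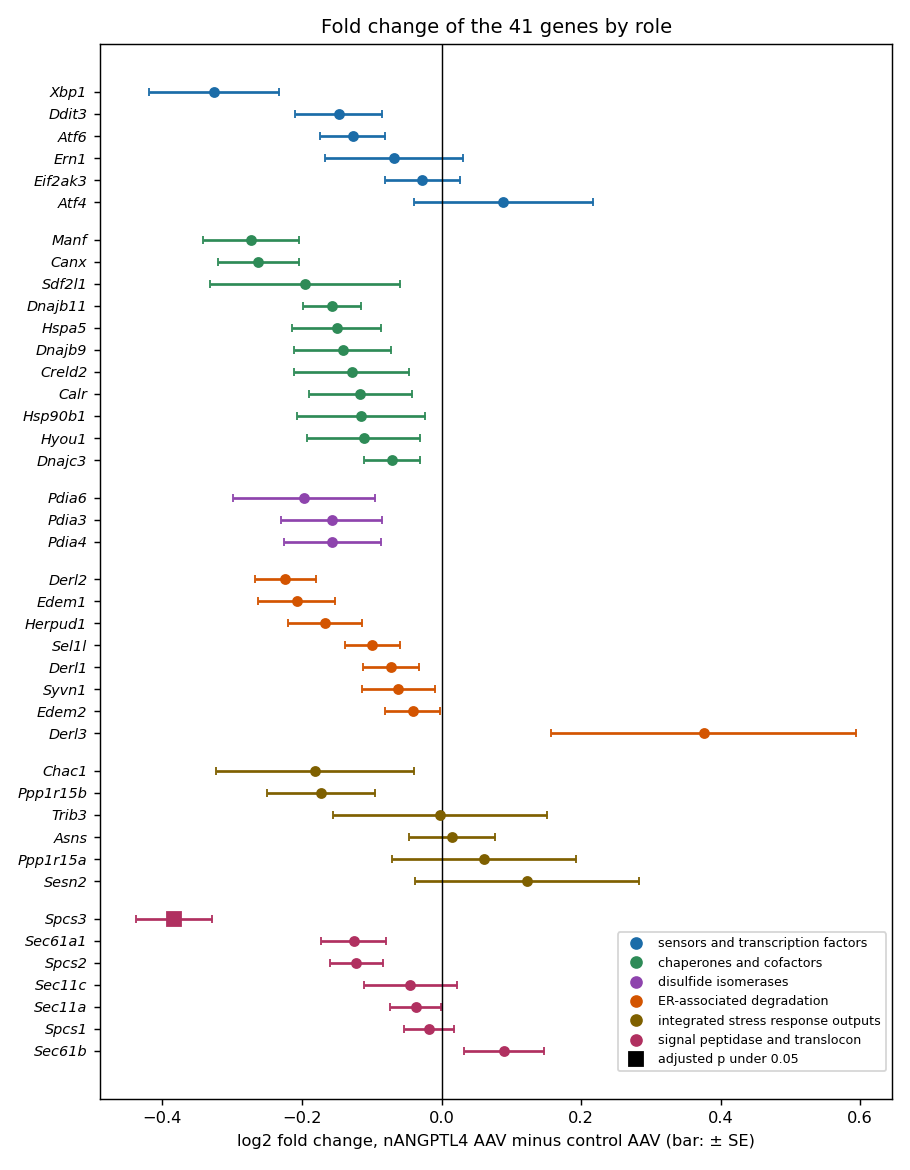
Log2 fold change of each of the 41 genes (nANGPTL4 AAV minus control AAV, horizontal axis) with its standard error as a bar, grouped by role on the vertical axis. The square marks Spcs3 at -0.38, the only gene past an adjusted p of 0.05, and all chaperones and disulfide isomerases lie left of 0 without passing.

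Among the subunits that bring proteins into the ER, Spcs3 stood at 72.9, 84.0, 84.1 and 78.1 CPM across control AAV libraries 1 to 4, the order used for each gene. In nANGPTL4 AAV libraries 1 to 4 it stood at 60.9, 59.9, 64.6 and 59.1 CPM. The highest nANGPTL4 AAV library was below the lowest control AAV library, and the values within each group were close together. Spcs3 encodes an accessory subunit that the signal peptidase needs for cleavage. Its mean went from 79.8 ± 5.36 to 61.1 ± 2.43 CPM (SD, n = 4 each). That is a log2 difference of -0.38 with an adjusted p of 0.0369 (edgeR quasi-likelihood test, SE 0.05), or -23.3%. The reads behind it were 6645 to 9496 per library in control AAV and 5634 to 7092 in nANGPTL4 AAV. The gene (ENSMUSG00000054408) occupies chr8:54520433-54529998 (mm10, minus strand), and 2.16% of its exonic bases overlap Asb5 on the other strand. The direction held in all 17 alternative fits, with a fold change between -0.42 and -0.34, but the call did not: leaving out any 1 of the 8 libraries, control AAV 1 to 4 or nANGPTL4 AAV 1 to 4, gave an adjusted p between 0.0620 and 0.162. The adjusted p was 0.0688 under upper quartile and 0.0659 under library size scaling.

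The other subunits of the same enzyme were nearer to their control levels. Spcs2, which links the enzyme to the channel, was at 120.3, 126, 127 and 120.2 CPM in control AAV and at 115, 113, 112 and 113 CPM in nANGPTL4 AAV. The groups did not overlap, except under upper quartile scaling. The log2 fold change of -0.12 (SE 0.04) had an adjusted p of 0.141 in the edgeR test. Spcs1, the smallest accessory subunit, was at 59.2, 59.3, 60.5 and 60.4 CPM in control AAV and at 60.4, 58.2, 59.1 and 58.7 CPM in nANGPTL4 AAV. These groups overlapped, with a log2 fold change of -0.02 (SE 0.04) that was positive, 0.02, under upper quartile and library size scaling. Spcs1 shares 16.3% of its exonic bases with Glt8d1 on the other strand, so its counts are less certain.

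Sec11a, a catalytic subunit, was at 57.9, 58.5, 58.6 and 57.3 CPM in control AAV and at 57.3, 54.8, 57.1 and 57.3 CPM in nANGPTL4 AAV. Its groups lay next to each other without overlap (57.33 against 57.26 CPM) and overlapped under RLE scaling. Its log2 fold change was -0.04 (SE 0.04), and 0.0023 or 0.0060 under upper quartile or library size scaling. Of the 31-base stretches of Sec11a, 13.1% recur in other genes, so its counts and its share below are less certain. Sec11c, the alternative catalytic subunit, was at 19.8, 20.6, 20.4 and 21.4 CPM in control AAV and at 18.5, 20.1, 22.3 and 18.8 CPM in nANGPTL4 AAV, with overlapping groups and a log2 fold change of -0.04 (SE 0.07). Set per kilobase of exon, Spcs3 made up 20.4%, 22.4%, 22.2% and 21.3% of the summed level of the 5 subunits in control AAV and 17.7%, 17.9%, 18.8% and 17.6% in nANGPTL4 AAV. The share was lower in every nANGPTL4 AAV library, while that of Spcs2 was 27.4% ± 0.307 and 27.4% ± 0.437 (SD, n = 4 each). These shares rest on annotated exon length and carry no test.

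Of the translocon, Sec61a1, which forms the channel, was at 227 to 249 CPM in control AAV and 206 to 225 CPM in nANGPTL4 AAV. Its groups did not overlap, but did so under upper quartile and library size scaling. The log2 fold change was -0.13 (SE 0.05), with an edgeR adjusted p of 0.196. Sec61b, a small subunit of the channel, was at 23.9 to 25.5 and 24.3 to 28.3 CPM, with a positive log2 fold change of 0.09 (adjusted p = 0.454 in edgeR, SE 0.06). Of the 31-base stretches of Sec61b, 23.5% recur in other genes, so its reads may be split. Spcs3 was the gene of these 7 farthest from its control level.

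**Figure D2:**
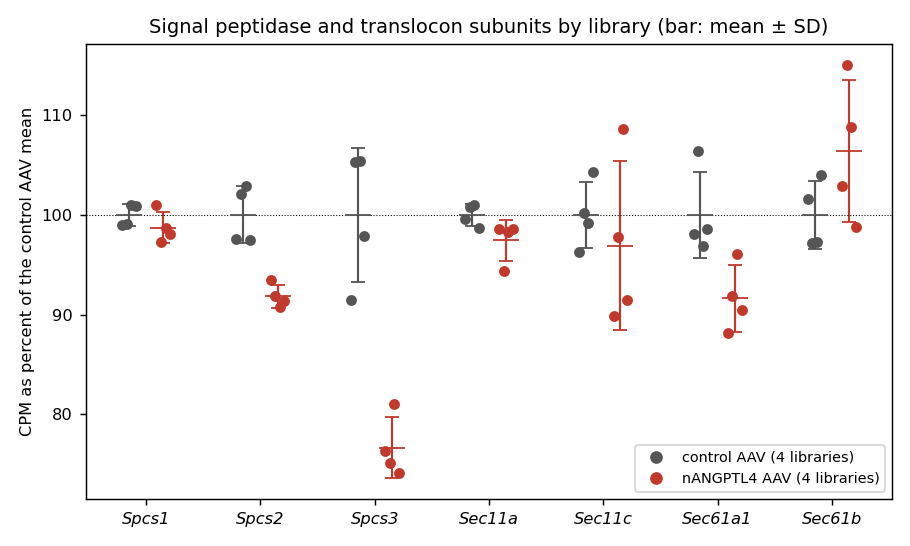
CPM of the 5 signal peptidase subunits and 2 SEC61 subunits in each library, as a percent of the gene's control AAV mean (vertical axis, which does not start at 0), with 4 control AAV (grey) and 4 nANGPTL4 AAV (red) libraries and the mean ± SD as bars. The nANGPTL4 AAV points of Spcs3 lie below all of its control points, while those of Spcs1 and Sec11c mix with theirs.

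None of the 3 sensors passed the test in edgeR or DESeq2, and 1 of them, Atf6, had an unadjusted p under 0.05. Ern1 was at 59.9, 41.7, 47.6 and 45.9 CPM in control AAV and at 42.4, 50.005, 48.4 and 45.2 CPM in nANGPTL4 AAV. Control AAV library 1 was the highest of all 8 and the groups overlapped, with a log2 fold change of -0.07 (adjusted p = 0.765 in edgeR, SE 0.10). Eif2ak3, the kinase PERK, was at 64.1, 55.6, 56.8 and 57.8 CPM in control AAV and at 57.4, 54.1, 58.9 and 59.4 CPM in nANGPTL4 AAV, with a log2 fold change of -0.03 (adjusted p = 0.8293 in edgeR, SE 0.05) that was positive, 0.01 and 0.02, under upper quartile and library size scaling. Atf6 was at 83.05, 75.0, 78.6 and 81.9 CPM in control AAV and at 74.5, 69.0, 72.7 and 75.3 CPM in nANGPTL4 AAV. Only nANGPTL4 AAV library 4 reached the control range, and the log2 fold change was -0.13 (adjusted p = 0.195 in edgeR, SE 0.05).

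Of the transcription factors below the sensors, Xbp1 and Ddit3 had negative and Atf4 a positive fold change. Xbp1, whose messenger is spliced by IRE1 into the form that encodes the active factor, was at 441, 471, 525 and 407 CPM in control AAV and at 337, 378, 426 and 329 CPM in nANGPTL4 AAV. Library 3 was the highest in each group, and only nANGPTL4 AAV library 3 entered the control range. The mean went from 461 ± 49.99 to 368 ± 44.3 CPM (SD, n = 4 each), which is -0.33 (SE 0.09) on the log2 scale, with an adjusted p of 0.120 in the edgeR test and 0.0284 in DESeq2. Counts per gene do not separate the spliced from the unspliced messenger. Ddit3, the factor CHOP, was low at 15.1, 16.5, 17.6 and 15.4 CPM in control AAV and 14.7, 14.7, 14.7 and 14.2 CPM in nANGPTL4 AAV. The groups did not overlap but lay close, with a log2 fold change of -0.15 (adjusted p = 0.249 in edgeR, SE 0.06). Under upper quartile and library size scaling they overlapped. Ddit3 shares 6.13% of its exonic bases with a second gene model of the same name on its strand, so its reads may be split. Atf4, the main factor of the integrated stress response, was at 348, 229, 269 and 267 CPM in control AAV and at 331, 235, 313 and 304 CPM in nANGPTL4 AAV. The groups overlapped, and the log2 fold change was 0.09 (adjusted p = 0.764 in edgeR, SE 0.13).

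All 11 chaperones and cofactors had negative fold changes, from -0.27 to -0.07 with a median of -0.14, and 0 passed an adjusted p of 0.05 in edgeR, where 4 had an unadjusted p under 0.05, while 3 passed in DESeq2. The group's median was -0.10 under upper quartile and library size scaling, where the median of all genes was 0.05. That of the 9256 more abundant genes, which include these 11, was 0.0058 and 0.0094. Hspa5, the abundant chaperone BiP that holds the sensors inactive, was at 707, 768, 771 and 681 CPM in control AAV and at 686, 590.2, 662 and 699 CPM in nANGPTL4 AAV. The groups overlapped, as nANGPTL4 AAV libraries 1 and 4 were above control AAV library 4, and the log2 fold change was -0.15 (adjusted p = 0.256 in edgeR, SE 0.06). Canx, the membrane-bound lectin chaperone calnexin, was at 373, 434, 384 and 398 CPM in control AAV and at 344, 315, 319 and 346 CPM in nANGPTL4 AAV. Every nANGPTL4 AAV library was below every control AAV library. The log2 fold change was -0.26 (SE 0.06), with an adjusted p of 0.0756 in edgeR and 0.00531 in DESeq2.

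Calr, the soluble partner of calnexin that binds the same glycans, had a smaller difference, at 459 to 592 CPM in control AAV and 451 to 516 in nANGPTL4 AAV, with a log2 fold change of -0.12 (adjusted p = 0.446 in edgeR, SE 0.07). Manf, a secreted protein induced by ER stress, was at 51.2, 59.2, 60.7 and 50.3 CPM in control AAV and at 46.0, 42.5, 46.4 and 48.3 CPM in nANGPTL4 AAV. Its groups did not overlap, with a log2 fold change of -0.27 (SE 0.07) and an adjusted p of 0.0961 in edgeR and 0.0214 in DESeq2. An antisense gene covers 4.71% of the exonic bases of Manf. Dnajb11, a cochaperone of BiP, was at 105, 114.2, 108 and 104 CPM in control AAV and at 94.8, 97.4, 96.4 and 97.5 CPM in nANGPTL4 AAV. These groups did not overlap either, with a log2 fold change of -0.16 (SE 0.04) and an adjusted p of 0.108 in edgeR and 0.0289 in DESeq2.

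Of the remaining chaperones, the BiP cochaperone Dnajb9 had a log2 fold change of -0.14, and 3 of its nANGPTL4 AAV libraries, at 32.5 to 33.7 CPM, lay below the control range of 38.2 to 38.8 while library 3 was at 40.7. Hsp90b1, the ER form of HSP90, had a log2 fold change of -0.12, the nucleotide exchange factor Hyou1 one of -0.11, Creld2 one of -0.13, Sdf2l1 one of -0.20 and the cochaperone Dnajc3 one of -0.07. The edgeR adjusted p of these 6 genes lay between 0.318 and 0.551, and in each the groups overlapped. Hsp90b1 shares 12.3% of its 31-base stretches with other genes and Dnajb9 10.8%, so both counts are less certain.

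The 3 disulfide isomerases, which form and shuffle disulfide bonds in folding chains, had the same highest and lowest control library. Pdia3 was at 562, 732, 642 and 641 CPM in control AAV and at 615, 565, 556 and 575 CPM in nANGPTL4 AAV. Pdia4 was at 173, 224, 194 and 191 CPM in control AAV and at 179, 180.2, 176 and 167 CPM in nANGPTL4 AAV. Pdia6 was at 304, 450.3, 383 and 377 CPM in control AAV and at 346, 356, 309 and 310 CPM in nANGPTL4 AAV. In all 3 the control AAV library 1 was the lowest control and library 2 the highest, so the groups overlapped through control AAV library 1 alone. Their log2 fold changes were -0.16, -0.16 and -0.20, with edgeR adjusted p-values of 0.290, 0.274 and 0.342.

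Many of these folding genes share a promoter element. The ER stress response element (ERSE), bound by ATF6 together with NF-Y, was searched as CCAAT and CCACG with 9 bases between them, on both strands of RefSeq promoter windows (GRCm38.p6) that run from 250 bases before to 50 after a gene's start. Windows were matched for 33 of the 41 genes, 34 windows in all, and 9 of them (26.5%) held the element, against 0.119% of all 32851 windows of that length. The 9 were Calr, Canx, Creld2, Derl3, Dnajc3, Hsp90b1, Hspa5, Pdia6 and Syvn1. The shorter ERSE-II, searched as ATTGG and CCACG with 1 base between them, which ends in the same 5 letters as ERSE, was in the windows of Dnajb11 and Herpud1 (5.88%, against 0.0365% of all windows). The 41 genes were chosen for their roles in the ER and its stress responses, so both contrasts with all windows are no independent test. The XBP1 element searched as TGACGTGG, whose reverse complement also holds those 5 letters, was in 0 of the 34 windows and in 0.676% of all. The matches of 5 genes are printed to show the letters at hand, in the direction of the motif. Capitals mark the letters that the search itself fixed, and lower case the free ones.
Hspa5, 65 bases before the start: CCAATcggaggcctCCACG
Canx, 145 bases before the start: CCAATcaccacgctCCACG
Pdia6, 98 bases before the start: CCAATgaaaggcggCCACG
Hsp90b1, 212 bases before the start: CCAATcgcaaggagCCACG
Hsp90b1, 107 bases before the start: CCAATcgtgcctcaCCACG
Herpud1, 52 bases before the start: ATTGGgCCACG
These lie at chr2:34772025-34772043 on the plus strand for Hspa5, chr11:50325800-50325818 on the minus strand for Canx and chr12:17266491-17266509 on the plus strand for Pdia6. The Hsp90b1 pair lies at chr10:86705638-86705656 and chr10:86705533-86705551, the second in the opposite direction to the gene, and that of Herpud1 at chr8:94386377-94386387. A match describes letters and not binding.

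The 250 bases before the start of Hspa5 and Canx show the element in its setting, with its fixed letters in capitals. Hspa5 was chosen as the classic target and Canx as the chaperone with the smallest p.
Hspa5, chr2:34771840-34772089, plus strand: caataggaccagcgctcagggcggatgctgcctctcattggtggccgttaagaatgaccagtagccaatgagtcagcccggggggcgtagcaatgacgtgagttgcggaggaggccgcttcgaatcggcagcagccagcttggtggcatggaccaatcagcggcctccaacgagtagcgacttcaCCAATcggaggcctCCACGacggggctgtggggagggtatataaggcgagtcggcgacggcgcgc
Canx, chr11:50325674-50325923, minus strand: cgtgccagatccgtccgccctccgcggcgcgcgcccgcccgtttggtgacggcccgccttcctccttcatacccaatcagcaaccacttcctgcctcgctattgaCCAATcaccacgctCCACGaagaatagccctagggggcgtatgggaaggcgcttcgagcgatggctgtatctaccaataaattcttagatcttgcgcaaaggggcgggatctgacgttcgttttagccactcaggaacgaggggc
The median log2 fold change of the 9 genes with an ERSE was -0.12 with 8 of 9 negative, and the 24 other genes with a window had a median of -0.11 with 19 negative. Outside the 41, the 11 tested genes with an ERSE in their window had a median of -0.08 with 8 negative.

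Of the 8 degradation factors 7 had negative fold changes, with a median of -0.09 that became -0.05 under upper quartile and -0.04 under library size scaling. Derl2, a channel-like protein that passes misfolded chains out of the ER, had the smallest p after Spcs3. It was at 78.2, 87.4, 82.7 and 82.5 CPM in control AAV and at 69.6, 69.4, 73.3 and 70.7 CPM in nANGPTL4 AAV. The groups did not overlap, and the log2 fold change was -0.22 (SE 0.04) with an adjusted p of 0.0654 in edgeR and 0.00198 in DESeq2. Its relative Derl1 was at 119 to 129.7 CPM in control AAV and 117 to 121 in nANGPTL4 AAV, with a log2 fold change of -0.07 (adjusted p = 0.380 in edgeR, SE 0.04). Derl3 was barely detected, at 0.332 to 0.549 and 0.437 to 0.638 CPM with overlapping groups, and its log2 fold change of 0.38 had an SE of 0.22.

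Edem1, a lectin that hands misfolded glycoproteins to degradation, was at 74.0, 85.5, 81.0 and 73.7 CPM in control AAV and at 67.5, 64.9, 70.2 and 69.6 CPM in nANGPTL4 AAV. The groups did not overlap, with a log2 fold change of -0.21 (SE 0.06) and an adjusted p of 0.108 in edgeR and 0.0372 in DESeq2. Its relative Edem2 was at 59.0 to 61.4 and 55.9 to 59.8 CPM, with a log2 fold change of -0.04 (adjusted p = 0.624 in edgeR, SE 0.04) that was 0.0017 with library size scaling. Herpud1, which organises the degradation complex, was at 183, 179.5, 185 and 167 CPM in control AAV and at 159, 151, 173 and 154 CPM in nANGPTL4 AAV. Only nANGPTL4 AAV library 3 passed the lowest control, and the log2 fold change was -0.17 (adjusted p = 0.147 in edgeR, SE 0.05). Sel1l, the scaffold of that complex, was at 233 to 244 and 218 to 229 CPM without overlap, with a log2 fold change of -0.10 (adjusted p = 0.228 in edgeR, SE 0.04). Under upper quartile and library size scaling its groups overlapped. The ubiquitin ligase of the complex, Syvn1, had a log2 fold change of -0.06 (adjusted p = 0.581 in edgeR, SE 0.05).

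The 6 outputs of the integrated stress response had 3 positive and 3 negative fold changes (2 negative under upper quartile and library size scaling) and a median of 0.01 (0.05 under both). In edgeR and in DESeq2 0 passed an adjusted p of 0.05, and Ppp1r15b alone had an unadjusted edgeR p under 0.05. The most abundant was Ppp1r15a, the phosphatase subunit GADD34 that reverses the block on translation, at 922, 594, 719 and 736 CPM in control AAV and 838, 619.5, 765 and 875 CPM in nANGPTL4 AAV. Its log2 fold change was 0.06 (adjusted p = 0.851 in edgeR, SE 0.13). Ppp1r15b, the constitutive form of that subunit, was at 172, 152, 153 and 155 CPM in control AAV and at 155, 122, 132 and 152 CPM in nANGPTL4 AAV, with a log2 fold change of -0.17 (adjusted p = 0.276 in edgeR, SE 0.08). An unnamed gene on the other strand overlaps 11.4% of the exonic bases of Ppp1r15b. The asparagine synthetase Asns was at 26.7 to 31.3 and 27.2 to 31.04 CPM, with a log2 fold change of 0.02 (SE 0.06). Trib3, an inhibitor of ATF4 signalling, had one of -0.0024 (SE 0.15) that turned positive under each other scaling, the glutathione-degrading Chac1 one of -0.18 (SE 0.14) and the stress protein Sesn2 one of 0.12 (SE 0.16), with edgeR adjusted p-values from 0.546 to 0.995 and groups that overlapped.

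The element that ATF4 binds together with C/EBP factors was searched as TGATGNAA on both strands. It was in the windows of Asns, Chac1, Herpud1 and Trib3, 11.8% of the windows of the 41 genes, and in 3.97% of all windows. As the genes were chosen for such roles, that contrast is no independent test either. The matches are shown in the direction of the motif because 3 of these 4 genes are outputs of the response.
Asns, 23 bases before the start: TGATGaAA
Chac1, 193 bases before the start: TGATGcAA
Herpud1, 112 bases before the start: TGATGcAA
The Asns match lies at chr6:7693225-7693232, and those of Chac1 at chr2:119351049-119351056 and Herpud1 at chr8:94386317-94386324 run opposite to their genes. The match of Trib3 lies after its start. The 4 genes had a median log2 fold change of -0.08, and the 29 others of the 41 with a window one of -0.12. Outside the 41, the 335 tested genes with the element had a median of 0.01 with 160 negative.

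Between libraries of the same group, the sums of folding genes and of stress outputs had different highest and lowest libraries. Control AAV library 2 held the highest control value in 8 of the 11 chaperones and in 3 of 3 disulfide isomerases, and control AAV library 1 held the lowest in 8 and in 3. The summed CPM of the disulfide isomerases was 1039, 1406, 1219 and 1209.5 in control AAV and 1139.5, 1101, 1039.9 and 1052 in nANGPTL4 AAV. The summed CPM of the 6 stress outputs, in which Ppp1r15a dominates, ran 1157, 816, 935 and 952 in control AAV and 1059, 806, 962 and 1089 in nANGPTL4 AAV. Gene by gene, control AAV library 2 was the lowest control in 2 of the 6 and the highest in 2. Likewise nANGPTL4 AAV library 2 was the lowest of its group in 3 and the highest in 2. In each group library 2 was the lowest for the sum of the stress outputs. A list of 13 genes known to respond to tissue dissociation and heat shock had the same lowest library in each group, at 15890.2, 10639, 11760.3 and 13669.8 CPM in control AAV and 16369, 12289, 15234 and 15426 CPM in nANGPTL4 AAV. That list had 10 of 13 positive fold changes and a median of 0.22, with 0 genes past an adjusted p of 0.05 in edgeR or DESeq2 and 0 at an unadjusted edgeR p under 0.05, and its part in the values of the 41 genes was not tested. Without control AAV library 2 the median log2 fold change of the 41 genes was -0.07 rather than -0.12, and without control AAV library 1 it was -0.13.

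**Figure D3:**
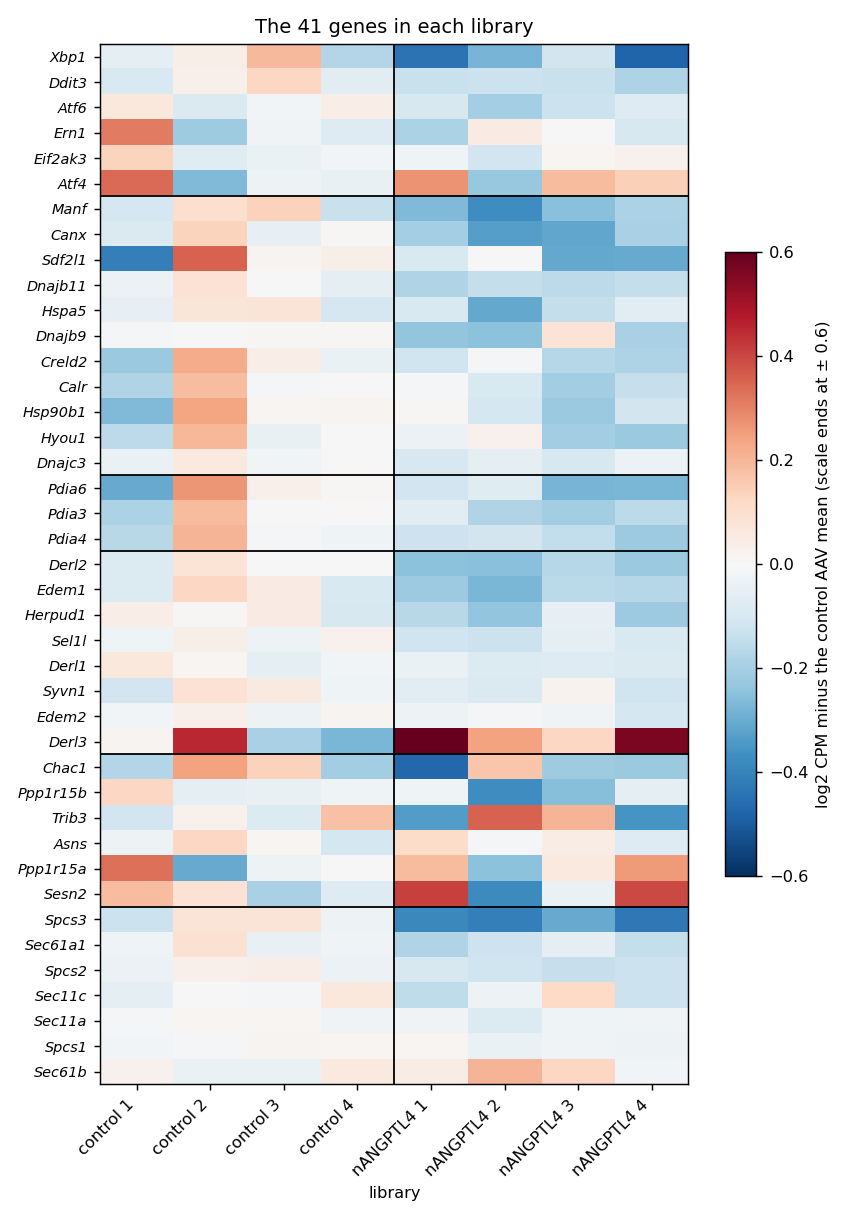
Log2 CPM of each gene (rows, by role) in each library (columns) minus the gene's control AAV mean, in red for higher and blue for lower, with colours ending at ± 0.6. Control AAV library 2 is red and library 1 blue for most chaperones and the isomerases, the 4 nANGPTL4 AAV libraries are blue for Spcs3, Canx, Manf and Derl2, and Atf4, Ppp1r15a and Sesn2 vary by library in both groups.

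**Figure D4:**
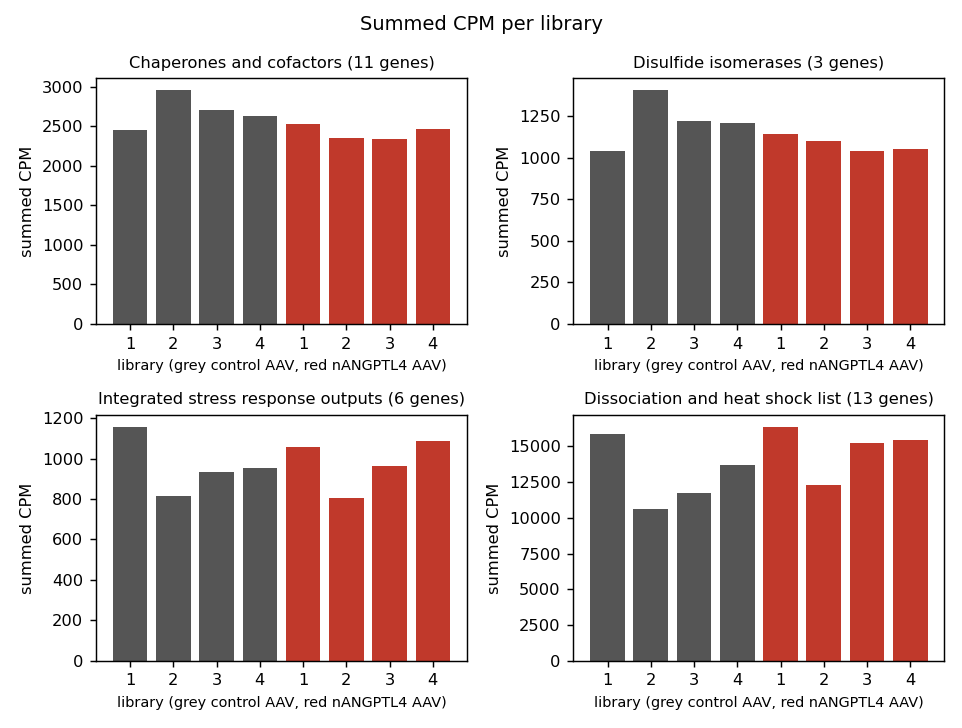
Summed CPM (vertical axes, from 0) per library for the 11 chaperones, 3 disulfide isomerases, 6 stress outputs and 13 dissociation genes, with control AAV in grey and nANGPTL4 AAV in red. The isomerase sum spans 1039 to 1406 within control AAV, wider than the 1039.9 to 1139.5 within nANGPTL4 AAV, and the lower panels share their lowest libraries.

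Read per kilobase of exon, the levels of the 41 genes spanned from the barely detected Derl3 to Ppp1r15a. In control AAV the highest were Ppp1r15a at 253, Pdia3 at 205, Calr at 181, Hspa5 at 173 and Xbp1 at 142 CPM per kb, and the same genes stood at 264, 184, 167, 156 and 113 CPM per kb in nANGPTL4 AAV. The 3 sensors were far lower, at 5.97 for Ern1, 9.72 for Eif2ak3 and 8.63 for Atf6 in control AAV.

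Other genes of the pathway were examined in 6 lists with 126 measured genes, of which 123 were tested. In edgeR 0 of the 123 passed an adjusted p of 0.05, while 34 had an unadjusted p under 0.05, all of them lower. That was reached in the lower direction by 10.3% of all tested genes and 18.2% of the more abundant ones. DESeq2 called 11 of the 123 (8.94%), beside 5.07% of all tested genes. Their median log2 fold change was -0.06 with 95 of 123 negative. Under upper quartile scaling it was -0.02 with 73 negative, and under library size scaling -0.02 with 71 negative. Without overlap between the groups 28 were lower and 1, Erlec1, higher, where 6.99% of all tested genes and 12.6% of the more abundant ones were lower. The 28 became 18 under upper quartile and 14 under library size scaling, where 3.89% and 3.67% of all tested genes were lower. Of the more abundant genes 6.88% and 6.44% were lower under these scalings. Factors of ER exit and retrieval had 9 of 22 genes lower without overlap, beside the same 6.99% and 12.6%, and 5 under upper quartile or library size scaling. Their median was -0.09, or -0.05 and -0.04 under these scalings. Of these the cargo receptors Ergic1, with a log2 fold change of -0.24 (adjusted p = 0.0642 in edgeR, SE 0.05), and Ergic2, with -0.14 (adjusted p = 0.116 in edgeR, SE 0.04), had the smallest p.

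Folding, oxidation and glycan-editing genes had 16 of 18 negative values (14 under upper quartile and library size scaling) and a median of -0.09 (-0.05 under both). In that list Mogs, the glucosidase that makes the first cut on new glycans and so precedes the calnexin step, was at 70.8, 82.2, 78.8 and 71.0 CPM in control AAV and at 59.5, 63.2, 62.6 and 58.5 CPM in nANGPTL4 AAV. Its groups did not overlap, with a log2 fold change of -0.31 (SE 0.06) and an adjusted p of 0.0642 in edgeR and 0.000614 in DESeq2. The membrane thioredoxin Tmx1 had a log2 fold change of -0.20 (adjusted p = 0.101 in edgeR, SE 0.05). In the list of further degradation factors Edem3, a relative of Edem1 that trims mannose, was at 82.9 to 87.8 and 62.0 to 75.9 CPM, with a log2 fold change of -0.32 (SE 0.06) and an adjusted p of 0.0642 in edgeR and 0.000708 in DESeq2. The ubiquitin-conjugating enzyme Ube2j1 had a log2 fold change of -0.18 (adjusted p = 0.121 in edgeR, SE 0.05), and the 19 degradation genes had a median of -0.04 with 17 negative. That median was positive, 0.0037 and 0.0075, under upper quartile and library size scaling, with 9 negative.

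In the list for targeting, translocon and glycosylation, with 20 of 26 negative (17 and 16 under the same scalings) and a median of -0.06 (-0.02 under both), the channel partner Tram1 had a log2 fold change of -0.21 (adjusted p = 0.0669 in edgeR, SE 0.04) and Ssr3 one of -0.18 (adjusted p = 0.0876 in edgeR, SE 0.04). Among other sensors and factors, with 13 of 17 negative (9 and 8 under the same scalings) and a median of -0.04 (-0.0024 and 0.0015), the adaptor Nck1 had one of -0.22 (SE 0.06) and Eif2s1, the translation factor that PERK phosphorylates, one of -0.21 (SE 0.06), both with an edgeR adjusted p near 0.11 (0.110 and 0.112). Targets of ATF4 and amino acid genes had 10 of 21 negative (7 under both scalings), a median of 0.01 (0.04 and 0.05) and 0 genes that separated the groups. The amino acid transporter subunit Slc3a2 had the smallest p there, with a log2 fold change of -0.16 (adjusted p = 0.282 in edgeR, SE 0.07).

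Markers of other cells were present at low levels and some moved with the groups. The 16 lung epithelial markers summed to 96.5 to 247 CPM in control AAV and 202 to 328 in nANGPTL4 AAV, lowest in control AAV library 1, with 13 of 16 fold changes positive and 1 called, Scgb3a2. The most abundant over both groups were Sftpc, Ager and Scgb1a1, and in control AAV Sftpa1 (19.3 CPM) was above Scgb1a1 (13.4 CPM). The club cell gene Scgb1a1 went to 31.7 CPM in nANGPTL4 AAV without overlap, a log2 fold change of 1.24 with an adjusted p of 0.0961 in edgeR and 0.0408 in DESeq2. Of the 3 markers with negative values, Foxj1 went from 1.86 to 1.03 CPM with overlapping groups. Its log2 fold change was -0.86, with an adjusted p of 0.130 in edgeR and 0.0273 in DESeq2. Scgb3a1 and Cdh1 had log2 fold changes of -0.09 and -0.04. Plasma cells are rich in ER genes, and their defining markers were near 0, with Jchain at no more than 0.124 and Mzb1 at no more than 0.157 CPM in any library. Without Xbp1 and Derl3, which are among the 41, the plasma and B cell list summed to 18.3 to 19.6 CPM in control AAV and 18.1 to 22.5 in nANGPTL4 AAV. Of the T and NK cell list 3 of 10 genes passed the low-count filter, with sums of 1.72 to 2.73 and 2.26 to 3.99 CPM.

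The myeloid list had 7 of 12 tested and sums of 165 to 356 CPM in control AAV and 185 to 499 CPM in nANGPTL4 AAV, most of it from Cd74, which other cells also express. Of the 7 tested, 6 had positive fold changes and 0 passed an adjusted p of 0.05 in edgeR, where 1 had an unadjusted p under 0.05. That gene was Cd68, higher without overlap at 4.79 against 6.57 CPM, a log2 fold change of 0.46 with an adjusted p of 0.0718 in edgeR and 0.000953 in DESeq2. Lyz2 was at 8.69 to 31.8 CPM in control AAV and 19.0 to 39.2 in nANGPTL4 AAV. Marco and Itgam reached no more than 0.151 and 0.0593 CPM in any library, and S100a8, too sparse to be tested, was at 0.0110 to 0.0265 CPM in control AAV and 0.0324 to 0.217 in nANGPTL4 AAV, without overlap. Fibroblast and mural markers, with 6 of 12 positive, summed to 69.8 to 138 and 80.5 to 170.0 CPM, and erythroid and platelet markers, with 9 of 9 tested positive, to 47.9 to 91.0 and 77.7 to 89.8 CPM. The part of these cells in the fold changes of the 41 genes was not tested.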

How the data were processed

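RNA of sorted lung endothelial cells was measured in 8 libraries, 4 per group. The authors deposited raw counts of reads for each Ensembl gene, with no normalization. Reads were placed on mm10, as the submitters' processing notes record. Aligner, counter, strand setting and annotation are not given in the sources used here. Symbols were matched without version numbers for 31491 of 31610 genes. Coordinates and exon lengths came from GENCODE M21, which uses the same build.

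Counts were analysed with edgeR 4.0.16 in R 4.3.3: filterByExpr with a minimum count of 10, TMM scaling and the quasi-likelihood F test with group as the only term, adjusted by Benjamini-Hochberg over 18874 genes and called under 0.05. The standard error (SE) of a log2 fold change came from the same test. The biological coefficient of variation was 11.3%. On simulated counts for 18631 genes of this comparison, with 50 genes changed at each fold, edgeR recovered 50% at a fold of 1.25, 94% at 1.5 and 100% at 2. DESeq2 recovered 64% at 1.25 and 100% at 1.5. Of the unchanged genes, 14 were called by edgeR and 46 by DESeq2. The changed genes were drawn from those above a floor of mean expression. No difference in scaling between the groups was simulated. Summed CPM, shares and medians over genes carry no test.

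The 41 genes and all lists were chosen with earlier results of these data known. Full values are given for called genes, the 8 further genes with the smallest p, the sensors, Hspa5, Ddit3 and Atf4, and subunits of a called gene's complex. Of other pathway lists the 2 genes with the smallest p are named, except those under 2 CPM. The other genes given with full values were chosen after their values were seen. Srp54a and Srp54b of the lists were not analysed here. Alternatives were other scalings, no filter and a filter of 50 counts in 4 libraries, DESeq2 1.42.0, limma-voom (limma 3.58.1) with quality weights, a robust fit, the replicate number as a block, and each library left out.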

Additional observations from a re-analysis of the deposited data

Results flagged for a closer look

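In 82 groups of 4 values, 1 for each gene and group, 4 had a library far from the other 3, where chance gives about 1 in 20. Ddit3 was at 14.2 CPM in nANGPTL4 AAV library 4 against 14.7 in each of the others, a gap that is small in size. Dnajb9 was at 40.7 CPM in nANGPTL4 AAV library 3, against 32.5 to 33.7 in the others. Ppp1r15b was at 172 CPM in control AAV library 1, against 152 to 155 in the others. Sec11a was at 54.8 CPM in nANGPTL4 AAV library 2, against 57.1 to 57.3 in the others.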

How the results depend on the processing

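Alternatives were chosen with earlier results known; the scalings for the counts of genes without overlap, among the 41 and the other pathway genes, were added after seeing the data. Of all genes, 26 were called; 4 were under upper quartile and 4 under library size scaling, 17 with the stricter filter, 59 with the robust fit, 956 with DESeq2, and 1 to 2 when a library was left out. Of the 41 genes, 1 was called; 0 were under upper quartile and 0 under library size scaling, 7 with DESeq2, and 0 to 0 when any library was left out. Their median log2 fold change was -0.08 (-0.0830 and -0.0792) under these 2 scalings and -0.127 to -0.0739 (without control AAV library 2) with a library left out. The 11 genes lower without overlap became 6 and 7 under the same scalings. Spcs3 had a log2 fold change of -0.35 (adjusted p = 0.0688) with upper quartile scaling, -0.34 (0.0659) with library size alone and -0.42 to -0.35 with a library left out. Compared with library size alone, TMM scaling moves nANGPTL4 AAV values down against control AAV ones. Its factors were 0.969 to 0.994 in control AAV and 1.008 to 1.023 in nANGPTL4 AAV. Why the factors differ by group, and the cause of the other changes, was not tested. Among the 41 genes, signs turned for 5 with small values. Trib3 was at 0.00082 with RLE scaling, 0.037 with upper quartile scaling, 0.041 with library size alone, 0.0028 without the filter, 0.010 with the stricter filter and 0.00073 in DESeq2. Under upper quartile and then library size scaling, Eif2ak3 was at 0.013 and 0.016, Spcs1 at 0.021 and 0.025 and Sec11a at 0.0023 and 0.0060, and Edem2 was at 0.0017 with library size alone. With a library left out, signs turned for 6, whose values ran from -0.125 to 0.0544 for Ern1, -0.0444 to 0.0268 for Eif2ak3, -0.128 to 0.102 for Trib3, -0.0201 to 0.0698 for Asns, -0.0210 to 0.190 for Ppp1r15a and -0.0192 to 0.0018 for Spcs1.

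Same-numbered libraries did not deviate together (r between -0.203 and 0.0402), and for differently numbered ones r lay between -0.18 and 0.146. These values gave no sign of pairing by number but cannot exclude it. With the replicate block, 6 genes were called over all genes and 0 of the 41, and Spcs3 had a log2 fold change of -0.38 (adjusted p = 0.105).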
